A study of Mus musculus with 4 samples.

Results

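NFIC is a transcription factor of the nuclear factor I family that acinar cells, the enzyme-secreting cells of the pancreas, express at high levels. Its binding was mapped by ChIP-Seq in 3 libraries from whole pancreas of wild-type mice of mixed strain, aged 8 to 12 weeks in the deposited description, with 1 library of input DNA, and the mice received no treatment that the descriptions name. Whole pancreas holds acinar, duct, islet and immune cells. The authors merged the libraries into 1 list of 15824 peaks assigned to 9086 genes, and the list gives no value of a single library, so no error between replicates can be given, the depth is unknown and nothing below was tested. The genes described here carry names that begin with Rab, Vamp, Stx, Stxbp, Snap or Syt and a digit, and they hold 92 of the 15824 peaks, in 56 of the 9086 genes. They are called exocytosis genes here for short, although some of them act in other steps of membrane traffic. A peak was assigned by the authors to the gene with the nearest transcription start site (TSS). Binding does not measure expression. A peak was found at 9 of 9 acinar marker genes and 4 of 5 duct markers. It was found at 0 of 6 islet and 0 of 3 immune markers, beside 35.7% of all protein-coding genes. These lists are short and unlike, since the acinar markers are transcription factors and enzymes and the islet markers only hormone genes.

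Acinar cells store digestive enzymes in zymogen granules and release them at the apical membrane when calcium rises. RAB GTPases mark each membrane compartment and recruit the effectors that move and tether it. SNARE proteins on the vesicle (VAMPs) and on the target membrane (syntaxins and SNAPs) then zip together to fuse both membranes. Syntaxin-binding proteins of the Munc18 type hold and guide the syntaxins, and some synaptotagmins couple fusion to calcium in neurons and endocrine cells.

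The NFI family binds a palindrome made of TGGC, any 5 bases and GCCA, which is called the NFI full site here. It was searched in the 200 bp around each peak centre and no more than 1 of its 8 fixed bases was allowed to differ. The sites without mismatch are shown first, since they are the closest matches to the palindrome among the exocytosis peaks. The capitals mark the site, with bases of the mm10 plus strand on each side.
Rab11a, chr9:64609731-64609760: gacgaaatTGGCTGGAGGCCAgcgctggcc
Rab29, chr1:131867138-131867167: agtgtacgTGGCAAGTCGCCAcactggtct
Rab2a, chr4:8523569-8523598: tggcgcccTGGCCCATTGCCAgggcccgtg
Rab2a, chr4:8605562-8605591: tatttattTGGCCTGATGCCAaggctgact
Rab37, chr11:115107607-115107636: ctagccatTGGCTCATTGCCAacaaacgct
Rab3b, chr4:108899660-108899689: ctgactatTGGCACTTTGCCAgccctgtgc
Rab40c, chr17:25919887-25919916: actgctacTGGCCCGCTGCCAccctctttc
Rab7, chr6:88053266-88053295: aatatatcTGGCCTATAGCCAtaccaccgc
Stx1a, chr5:135029175-135029204: ctgctggcTGGCCTGCTGCCAtcccccagc
Syt1, chr10:108867413-108867442: gttcccctTGGCTTCCTGCCAggctgtcag
Syt2, chr1:134727479-134727508: gcagccttTGGCTTCGGGCCAtctctcggg
Vamp1, chr6:125222222-125222251: tcctatgtTGGCTCTAGGCCAgaagggctg

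These 12 sites lay in the 200 bp windows of 12 of the 92 peaks. That is 13.0% (95% Wilson interval 7.62 to 21.4%, counting error only), beside 13.4% of all peaks. 4 of them were in genes of regulated secretion in neurons and islets, *Rab3b*, *Stx1a*, *Syt1* and *Syt2*, and 1 was near the end of *Vamp1*. The sites in *Rab29* and *Rab40c* were in promoters, those of *Rab2a* lay at -12088 bp and at 69917 bp, inside the gene, and the site assigned to *Rab11a* was 127979 bp from its TSS. The site of *Rab7*, a RAB of late endosomes, was in the window of a peak at -8100 bp, but mostly outside the peak itself. That of *Rab37* was in intron 1 at 16225 bp.

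Of the genes of the zymogen granule, *Rab3d*, *Rab27a* and *Stx3* held the full sites shown next, each with 1 mismatch. They were chosen because these proteins are close to enzyme release in the acinar cell, and the capitals again mark the site on the plus strand. *Rab27b*, a granule RAB, also held full sites with 1 mismatch, which are not shown.
Rab27a, chr9:73052896-73052925: gcctcctaTAGCTTTGTGCCAcggagccaa
Rab27a, chr9:73052904-73052933: tagctttgTGCCACGGAGCCAagaaactat
Rab3d, chr9:21901691-21901720: ttgagcggGGGCAAAGCGCCAggcaagagt
Rab3d, chr9:21909995-21910024: tgtgtcctTGGCTAGCAGTCAgttcacagg
Stx3, chr19:11818297-11818326: ccggtttgGGGCACAGTGCCAggcggcaga

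Both sites of *Rab27a* overlap, as do those of the strongest exocytosis peak, at *Stx1a*. The 3 strongest peaks that lie outside annotated exons and hold a full site, those of *Stx1a*, *Rab3c* and *Rab3il1*, are given whole on the plus strand, with the full sites in capitals.
Stx1a, chr5:135021930-135022102: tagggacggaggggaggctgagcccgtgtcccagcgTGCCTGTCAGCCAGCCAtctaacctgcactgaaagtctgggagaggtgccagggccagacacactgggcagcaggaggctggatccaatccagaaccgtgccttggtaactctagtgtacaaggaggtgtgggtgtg
Rab3c, chr13:110139481-110139653: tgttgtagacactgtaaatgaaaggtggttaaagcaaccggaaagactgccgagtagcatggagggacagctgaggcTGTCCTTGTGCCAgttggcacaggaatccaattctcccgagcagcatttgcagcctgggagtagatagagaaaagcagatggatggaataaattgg
Rab3il1, chr19:10025222-10025394: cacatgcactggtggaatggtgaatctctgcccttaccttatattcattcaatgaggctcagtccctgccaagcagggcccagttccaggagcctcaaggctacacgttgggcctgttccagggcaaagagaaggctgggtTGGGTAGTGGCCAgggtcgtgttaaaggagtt

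The promoter peak of *Rab3d*, the RAB of the zymogen granule, held no full site. Its part outside annotated exons is printed on the strand of the gene. The capitals mark a match on the other strand to GGGCGG, the letters bound by the SP family of promoter factors.
Rab3d, chr9:21918184-21918351: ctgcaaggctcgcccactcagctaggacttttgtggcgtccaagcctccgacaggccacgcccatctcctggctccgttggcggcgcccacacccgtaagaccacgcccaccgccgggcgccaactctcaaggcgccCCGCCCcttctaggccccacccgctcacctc

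NFIC peaks were found at 53 of the 121 protein-coding genes of the mouse annotation with such a name, 43.8% (35.3 to 52.7%), beside 35.7% of all protein-coding genes. The interval includes the share of all genes. The other 3 of the 56 genes were RNA genes named for the strand opposite *Rab10* or *Rab11fip4*. Annotated exocytosis genes with a peak had a median length of 36.7 kb and those without one 25.04 kb, and over all protein-coding genes the medians were 27.3 kb and 12.6 kb. All 121 exocytosis genes had a median of 28.5 kb against 17.1 kb for all genes, so gene length moved with both shares, and its part was not tested.

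The count of genes with a peak varied between the families. RAB GTPases had 30 of 59 genes with a peak (50.8%, 38.4 to 63.2%) and RAB effectors and regulators 5 of 9. Among the SNAREs, 7 of 15 syntaxins, 3 of 8 VAMPs and 1 of 4 SNAPs had a peak. Syntaxin-binding proteins had 3 of 7, and synaptotagmins only 4 of 17 (23.5%, 9.56 to 47.3%). A further 2 protein-coding genes that fit the name rule belong to none of these families and had no peak under their names. The intervals of the RAB GTPases and of the synaptotagmins overlap, and no 2 families were tested against each other.

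**Figure D1:**
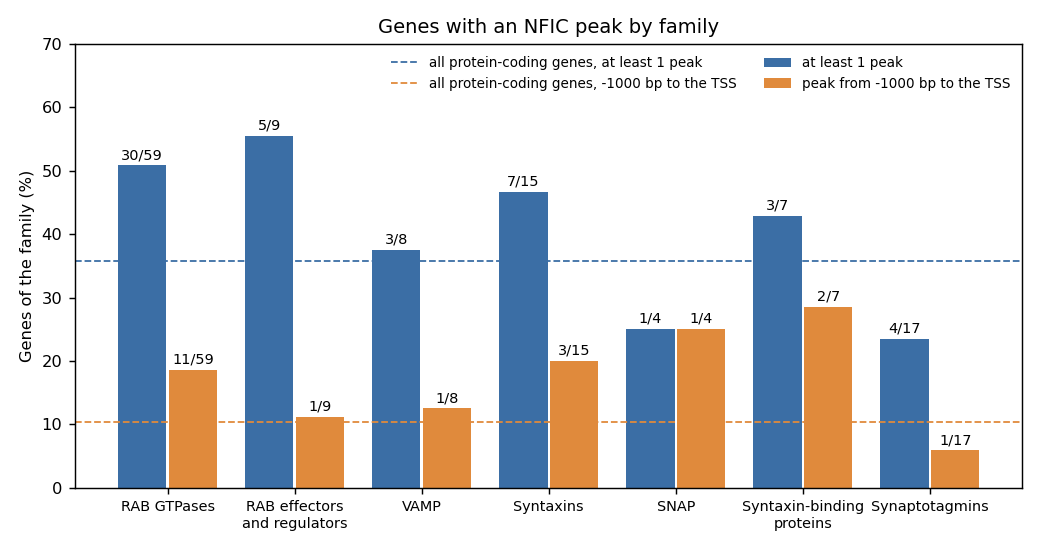
Bars give the percent of the annotated genes of each family with at least 1 NFIC peak (blue) and with a peak from -1000 bp to the TSS (orange), with the number of genes above each bar, and dashed lines give the same percent of all protein-coding genes (35.7% and 10.3%). RAB GTPases (30 of 59) and RAB effectors (5 of 9) stand above the blue line, and SNAPs (1 of 4) and synaptotagmins (4 of 17) below it.

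Within the RAB GTPases, a peak was present at 6 of 8 genes whose proteins work on secretory granules, at 8 of 12 that act in recycling and apical transport, and at 6 of 11 that act between the ER and the Golgi. Of those of endosomes and lysosomes, 5 of 14 had a peak, as did 5 of 14 with other roles. The granule RABs with a peak were *Rab3b*, *Rab3c*, *Rab3d*, *Rab27a*, *Rab27b* and *Rab37*, and those without were *Rab3a* and *Rab26*. These counts are small, and the Wilson interval of 6 of 8 runs from 40.9 to 92.9%, beside 35.7% of all protein-coding genes. A promoter peak was present at 1 of the 8, *Rab3d* (12.5%, 2.24 to 47.1%), beside 10.3% of all protein-coding genes. *Rab3b* and *Rab37* each held a single peak, with a score of 3.98. The granule RABs with a peak were 10.7 to 226.8 kb long, while *Rab3a* and *Rab26* were 3.9 and 4.7 kb. The part of gene length in these counts was not tested.

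In the 1000 bp upstream of the TSS, 20 of the 121 protein-coding genes had a peak, 16.5% (11.0 to 24.2%), beside 10.3% of all protein-coding genes. Counted over peaks, 20 of 92 fell in this window, 21.7% (14.5 to 31.2%), beside 15.4% of all peaks, which the interval includes. The promoter class of the authors' annotation, which also reaches past the TSS, held 31.5% of the exocytosis peaks (22.9 to 41.6%) and 20.7% of all peaks, and 17.4% against 30.6% were intergenic. Introns held 45.7% and 40.8%. Within 250 bp of the TSS on either side lay 27 exocytosis peaks, 29.3% (21.0 to 39.3%), against 17.7% of all peaks.

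Of the 20 genes with a promoter peak, 11 were RAB GTPases. They included *Rab1a* (-257 bp, score 7.97) and *Rab2b* (-66 bp, 5.78), which act between ER and Golgi, and *Rab43* (-108 bp, 7.57), a Golgi RAB. The strongest of the 11 was the peak of *Rab3d* at -82 bp, with a score of 10.4 that exceeded 81.1% of all peaks. Recycling and apical transport were represented by *Rab11a* (-40 bp, score 7.17) and *Rab17* (-35 bp, 8.96), an epithelial RAB. The endosomal *Rab5c* (-162 bp) had a low score of 4.98, and *Rab29*, which acts at the trans-Golgi network and lysosomes, had a peak of 6.97 at -112 bp. *Rab12* (4.18), *Rab40b* (6.57) and *Rab40c* (8.17) completed the RABs.

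Among the other promoter genes were SNAREs, their partners and effectors. *Stxbp6*, which encodes amisyn, a protein with a SNARE motif that binds syntaxins, had the highest score of all promoter peaks of the set, 13.1 at -700 bp. The syntaxins were *Stx5a* of the ER and Golgi (4.18 at -87 bp), *Stx16* of the trans-Golgi network (6.97 at -826 bp) and *Stx17* of autophagosomes (6.17 at -108 bp). For *Stx16* another annotated TSS lies nearer, and the peak is at -77 bp from it. *Snap23*, the widely expressed SNAP of non-neuronal exocytosis, had 5.58 at -154 bp and *Vamp3*, a VAMP of recycling endosomes, 4.38 at -183 bp. *Syt7*, a calcium sensor, had 4.78 at -108 bp, and *Rab11fip5*, a RAB11 effector, 5.58 at -3 bp. Scores over the 20 promoter peaks ranged from 4.18 to 13.1 with a median of 6.77, close to the median of 6.57 of all promoter peaks of the list.

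A further group of peaks lay just downstream of the TSS and is missed by the window. *Rab8a*, which drives transport from the Golgi to the apical membrane, had the strongest of these, at 44 bp with a score of 17.3, above 96.4% of all peaks and above each of the 20 promoter peaks. *Rab27b*, a granule RAB with more than 1 annotated TSS, had peaks at 58 bp (4.18) and 105 bp (6.77) of different start sites. *Stxbp6* had a second peak at 83 bp (7.17), only 783 bp from the promoter peak. *Rab33b* (70 bp, 6.17), *Rab10* (82 bp, 3.98), *Vamp4* (94 bp, 7.57), *Rab28* (146 bp, 4.18), *Rab3ip* (199 bp, 4.78) and *Rab10os* (15 bp, 7.17) followed. With these, 26 of the 56 genes had a peak within 250 bp of a TSS. The same share over all genes with a peak was not computed. Counted over peaks, it was 29.3% of the exocytosis peaks against 17.7% of all peaks.

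Peak scores of the set were close to those of the list. The score is the authors' own, on a scale that they do not name. Its median was 6.97 over the 92 peaks and 6.57 over all peaks, and its range 3.98 to 23.5 against 3.39 to 68.1. A score in the upper 2 quartiles of the list, at least 6.57, was held by 54 exocytosis peaks, 58.7% (48.5 to 68.2%), beside 51.6% of all peaks, where ties raise the share. The interval includes it. By family, 11 of 14 syntaxin peaks and 8 of 10 peaks of syntaxin-binding proteins were in the upper quartiles, against 27 of 48 of RAB GTPases, 1 of 4 of synaptotagmins, 1 of 3 of VAMPs and 0 of 1 of SNAPs. The 14 syntaxin peaks include 9 at 2 genes and the 10 peaks of syntaxin-binding proteins include 8 at *Stxbp6*, so they stand for few genes.

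**Figure D2:**
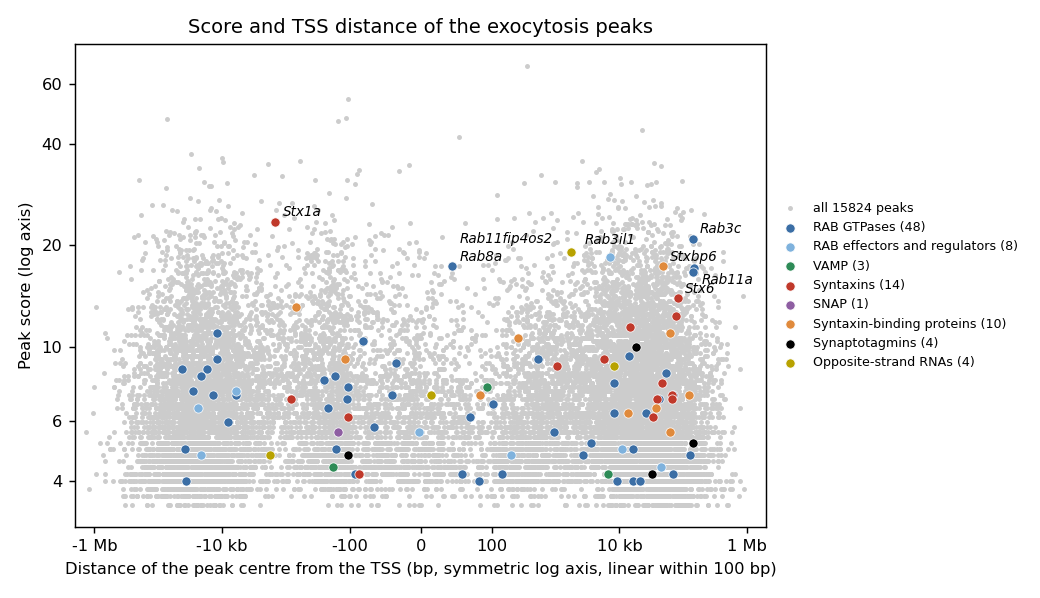
Each point is a peak, with its distance from the TSS on a symmetric log axis and its score on a log axis, for all 15824 peaks (grey) and the exocytosis peaks coloured by family, where the number of peaks stands in the legend. Labels name the strongest peak of each gene among the 10 highest scores, from *Stx1a* (23.5) to *Stx6* (13.9), and 1 of them, *Rab8a*, is within 250 bp of the TSS.

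The strongest exocytosis peak had a score of 23.5, above 99.2% of all peaks, and lay at -1466 bp from the TSS of *Stx1a*, the plasma membrane syntaxin of neurons and endocrine cells, whose sequence is given above. The second, with 20.9, was in intron 3 of *Rab3c*, a RAB3 of neurons and neuroendocrine cells, 140639 bp from its TSS. The third, with 19.1, was assigned to *Rab11fip4os2*, and lies also inside *Rab11fip4*, a gene for a RAB11 effector. *Rab3il1*, an exchange factor for RAB3 and RAB8 proteins, had 18.5 in its first intron. 2 of the 10 strongest peaks were assigned to *Rab11a* (17.1 and 16.7) and 2 to *Stxbp6* (17.3 and 13.1). *Rab8a* (17.3) and *Stx6* (13.9) held the others.

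Several genes carried clusters of peaks. 40 of the 56 genes had 1 peak (71.4%, against 61.4% of all genes with a peak), and 9 had 3 or more (16.1% against 16.9%). *Stxbp6* had most, with 8 peaks over 121.9 kb, and 7 of them are inside this gene of 222.6 kb. Their scores were 13.1 and 7.17 at the TSS and 6.37, 6.57, 17.3, 11.0, 5.58 and 7.17 going into introns 1 and 2. The highest was 47.9 kb into the gene, and 3 of the 8 held an NFI full site.

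*Stx6*, a syntaxin of the trans-Golgi network and endosomes, had 6 peaks and none near its TSS. They were 33.1 to 81.4 kb downstream of it, and the scores were 6.17, 6.97, 7.77, 7.17, 12.3 and 13.9 in this order. The first 3 are inside *Stx6* and each held a full site. The last 3, with both of the highest scores, are inside the neighbouring gene BC034090, and none of these held a full site. The nearest annotated protein-coding TSS gives BC034090 as the gene of these 3 and also of the peak of 7.77.

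*Rab11a*, the RAB of recycling endosomes, had 4 peaks. Only the one at -40 bp (7.17) is near the gene. The other 3, with 17.1, 16.7 and 4.78, were 128.0 to 146.8 kb away in intron 5 of *Megf11*, a gene for a cell-surface protein. *Rab27b* had 5 peaks of 3.98 to 8.37, all inside the gene. The highest 2, of 6.97 and 8.37, were 41.6 and 53.5 kb from different annotated start sites and held the full sites of this gene.

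The genes with 3 peaks were *Rab2a*, *Rab3c*, *Rab3d*, *Rab11fip3* and *Stx1a*. The peaks of *Stx1a* (23.5, 9.16 and 11.4) all scored above the list median and all held a full site, the only one of the 9 clusters where every peak did. *Rab2a*, a RAB of ER and Golgi traffic, had 9.16, 9.16 and 7.17, also all above the median. *Rab3c* paired its peak of 20.9 with weak ones of 4.98 and 4.18, and *Rab11fip3*, an effector of RAB11, had 6.57, 4.78 and 4.98, none above the median. *Rab3d* had 10.4 at the promoter, 7.77 in the 3′ UTR and 4.98 beyond the end of the gene, and the weaker 2 held its full sites.

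**Figure D3:**
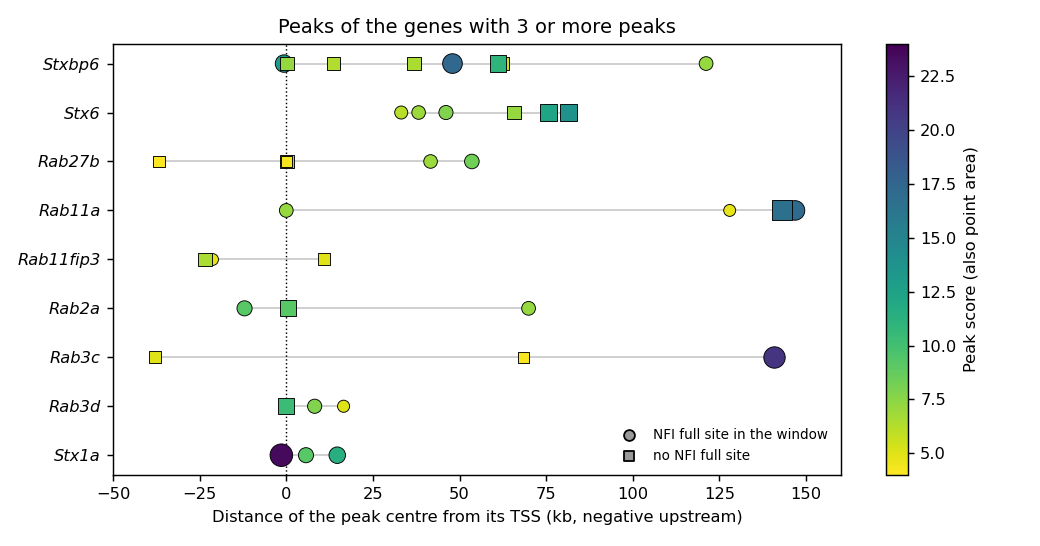
Positions of the peaks of the 9 genes with 3 or more peaks, in kb from the TSS to which each was assigned, with colour and point area for the score, circles for peaks with an NFI full site and squares for peaks without one. The peaks of 1 gene can be placed from different start sites, as at *Rab27b* and *Rab11fip3*. The highest scores are away from the TSS at *Rab11a*, *Rab3c*, *Stx6* and *Rab27b*, while *Rab3d* and *Stx1a* have theirs within 2 kb of it.

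Some of the genes for enzyme release had a peak and others had none. Of 14 genes listed for the zymogen granule and its fusion machinery, 7 had a peak (50.0%, 26.8 to 73.2%). The interval includes the 35.7% of all protein-coding genes. A promoter peak was present at 3 of the 14 (21.4%, 7.57 to 47.6%), beside 10.3% of all protein-coding genes, which the interval includes. *Rab3d*, *Rab27a* (6.37 in intron 1) and *Rab27b* were the bound RABs. *Stx3*, a syntaxin of the granule and apical membranes, had 8.76 at 1064 bp, and *Snap23* 5.58 at its promoter. *Stxbp3*, a Munc18 gene whose protein is basolateral in acinar cells, had 10.6 at 261 bp. Scores over the 13 peaks of these genes were 3.98 to 10.6, with a median of 6.97.

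No peak was assigned to *Vamp2* and *Vamp8*, the VAMPs of the granule, nor to the syntaxin genes *Stx2* and *Stx4a*, *Snap29*, *Rab26* or *Stxbp2*, the Munc18 protein of the apical membrane. The nearest peak to *Vamp2* was 8511 bp from its TSS with a score of 34.9, higher than any exocytosis peak, and was assigned to *Per1*. For *Stx2*, *Rab26*, *Vamp8* and *Stxbp2* the nearest peak was 11.5, 15.4, 17.3 and 21.4 kb away, with scores of 3.98 to 11.6. For *Snap29* and *Stx4a* it was 45.7 and 49.2 kb away.

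Of 14 genes best known from neurons and islets, 8 had a peak (57.1%, 32.6 to 78.6%), beside 35.7% of all protein-coding genes, which the interval includes. 1 of them, *Syt7*, had a promoter peak, beside 10.3% of all protein-coding genes. *Stx1a* and *Rab3c* held the highest scores of the whole set, and *Syt2*, a calcium sensor, had 9.96 in intron 1, with a full site 2 bp from the peak centre. The others were low, at *Rab3b* (3.98), *Vamp1* (4.18), *Syt9* (4.18) and *Syt1* (5.18). The median over the 12 peaks was 5.08. *Rab3a*, *Snap25*, *Syt4*, *Syt5* and *Syt13* were among those without a peak, and for *Snap25* the nearest of any gene was 178.5 kb away. The hormone genes of the islet had none either, with 0 of 6, and the cell type in which a peak was bound cannot be told from whole pancreas.

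**Figure D4:**
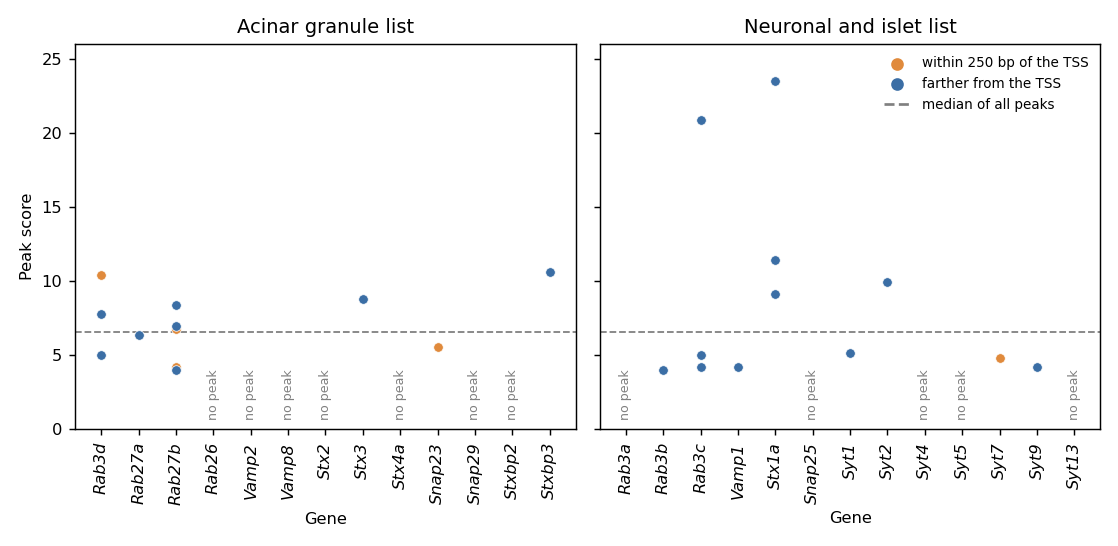
Peak scores of genes from the zymogen granule list (left) and the neuronal and islet list (right), with peaks within 250 bp of the TSS in orange and others in blue, and the median score of all peaks (6.57) as a dashed line. Genes with no point have no peak, and the scores above 20 belong to *Stx1a* and *Rab3c*.

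Genes without a peak were spread over the families. Among the RABs they were *Rab1b*, *Rab6a*, *Rab18*, *Rab30* and *Rab33a* of the ER and Golgi, *Rab5a*, *Rab5b*, *Rab9*, *Rab9b*, *Rab20*, *Rab21*, *Rab22a*, *Rab31* and *Rab38* of endosomes and lysosomes, *Rab4b*, *Rab8b*, *Rab13* and *Rab35* of recycling, and 9 with other roles. Close relatives could differ, as *Rab8a* with 17.3 and *Rab8b* with no peak, or *Rab1a* and *Rab1b*. 13 of 17 synaptotagmins had none, nor did *Vamp5*, *Vamp7*, *Vamp9* and *Snap47*, and, among the syntaxins, *Stx7*, *Stx11*, *Stx12*, *Stx18* and *Stx19*. Of the RAB effectors and regulators, *Rab11fip1*, *Rab11fip2*, *Rab11fip4* and *Rab3gap2* had none. *Stxbp4*, *Stxbp5* and *Stxbp5l* had none, although they are long genes of 145.7 to 277.9 kb. None of the 7 pseudogenes had a peak.

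The assignment to the nearest TSS left some peaks inside exocytosis genes with other genes. A peak of 32.3, above 99.8% of all peaks, lies in *Rab37*, a RAB of secretory granules, but was assigned to *Slc9a3r1*, while the peak assigned to *Rab37* scored 3.98. A peak of 22.3 in *Rab43* was assigned to *Gp9*. *Rab11fip4* held 4 peaks in its 107.0 kb and was assigned none of them. *Stx8*, a late endosomal syntaxin, held 3 further peaks of 5.18 to 10.8 that were assigned to Mir6406. *Rab20* held 2, of 5.98 and 9.16, both assigned to E230013L22Rik, and the stronger lay 736 bp from the TSS of *Rab20*. In all, 56 of the 92 peaks were inside the gene they were assigned to and 11 inside another protein-coding gene only.

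The promoter and distant peaks differed in sequence as those of the whole list did. A full site with at most 1 mismatch was present in 44 of the 92 peaks, 47.8% (37.9 to 57.9%), beside 51.8% of all peaks. Within 250 bp of the TSS it was in 7 of 27 exocytosis peaks (25.9%) and in 33.1% of all such peaks, and beyond 10 kb in 24 of 43 (55.8%) and 56.5%. The letters GGGCGG of the SP factors went the other way, with 18 of 27 (66.7%) near the TSS and 1 of 43 (2.33%) beyond 10 kb, against 62.6% and 7.25% of all peaks. At the promoters of *Rab40c*, *Syt7* and *Rab11fip5* the exon-free part of the peak held 3 SP matches each.

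**Figure D5:**
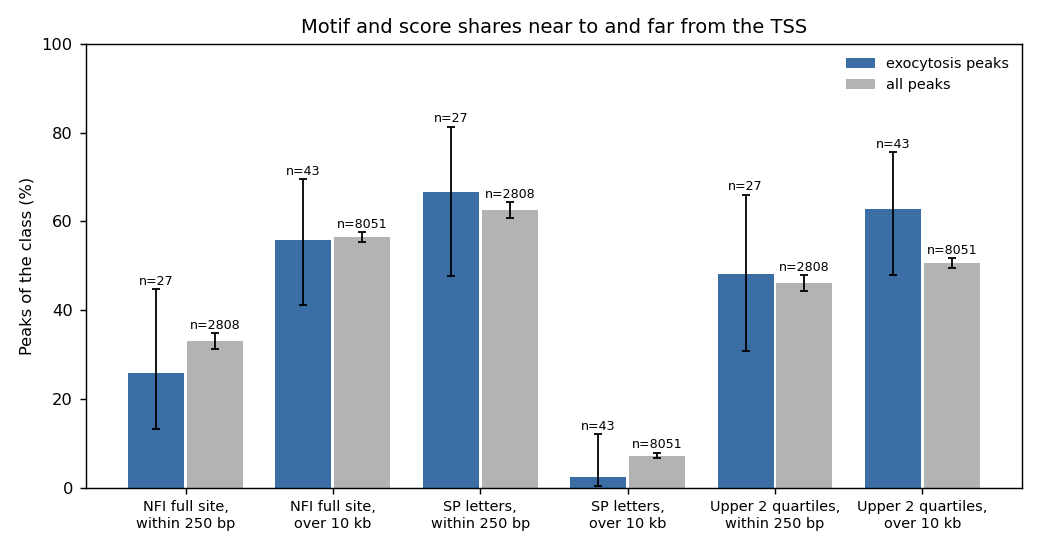
Percent of exocytosis peaks (blue) and of all peaks (grey) that hold an NFI full site, hold GGGCGG or score in the upper 2 quartiles, within 250 bp and over 10 kb from the TSS, with 95% Wilson intervals as error bars and the number of peaks above them. In each pair the interval of the exocytosis peaks includes the percent of all peaks, and full sites are more frequent far from the TSS while SP letters are more frequent near it.

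Other motifs were searched without mismatch on both strands, and their shares were near those of the list. TTGGCA, 1 arm of the NFI palindrome that overlaps some full sites, was in 30 of 92 peaks (32.6%, against 33.6% of all peaks). The E-box CAGCTG was in 17 (18.5%, against 21.4%), GATAAG of the GATA factors in 8 (8.70% against 7.75%), CCGGAAG of the ETS factors in 5 (5.43% against 3.55%) and CACGTG in 3 (3.26% against 4.59%). TCAAGGTCA of NR5A2 was in 0 of 92 and in 0.442% of all peaks. So rare an exact match says little when it is absent from 92 peaks. The authors' own search for motifs in the NFIC peaks placed NR5A2 among the further top motifs. The promoter of *Rab11a* held 3 matches to the ETS letters in the part outside exons, counted on both strands, and some of them overlap.

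Of 67 genes of the machinery around the RABs and SNAREs, listed for comparison, 32 had a peak (47.8%, 36.3 to 59.5%), beside 35.7% of all protein-coding genes, and 11 a promoter peak (16.4%, 9.42 to 27.1%), beside 10.3%, which the interval includes. The genes that prenylate, extract or activate RABs had 10 of 14 with a peak and 6 of 14 with a promoter peak. *Gdi2*, which extracts RABs from membranes, had 10.6 at -474 bp, and *Rabggta* and *Rabggtb*, both subunits of the enzyme that prenylates RABs, had 5.18 at -17 bp and 9.56 at -369 bp. Of the RAB effectors 9 of 16 had a peak, among them *Myrip* with 5, which links RAB27 to myosin and had 11.6 at -109 bp, and *Myo5c*, an epithelial myosin of granules, with 21.1 and 15.1 in its introns. Priming and clamping genes had 6 of 12, and other SNAREs 5 of 12. The exocyst, which tethers vesicles, had 2 of 9, and the NSF and SNAP attachment genes that take SNARE complexes apart 0 of 4.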

How the data were processed

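NFIC-bound DNA of wild-type mouse pancreas was sequenced in 3 libraries, beside 1 library of input DNA, which was not used separately here. The authors deposited 1 merged peak list on mm10. The submitters' processing notes name BWA, Picard and MACS2, and the list's header shows annotation with HOMER. The methods name the RUbioSeq+ pipeline and HOMER in a paragraph on downloaded data. Versions and thresholds are not given in the sources used here. The peak score was used as deposited by the authors, on a scale that is not named. Of each peak the authors also deposited the fraction of tags near its centre, on which no result rests. All peaks are 173 bp wide. No column gives values of a single library, so neither replicate error nor a test between groups was possible, and the depth is unknown.

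All 92 peaks whose gene name fits the rule were used, without a filter. Distances and classes are those of the authors. Genes were matched to the RefSeq annotation of GRCm38, whose release may differ from theirs, and all 92 symbols matched. *Rab5if*, which has a peak under a former symbol, was counted among the 121 protein-coding genes as a gene without a peak. The set was counted by the symbols of the list, and the shares of all protein-coding genes by gene identifier and then symbol. Promoters ran from -1000 bp to the TSS. Motifs were read from the genome in windows of 200 bp. Shares have 95% Wilson intervals, which cover counting error only. Before use, the motif search and the intervals were tested on simulated data, and the other steps were not. The members and lists were chosen with earlier results of these data known. Named genes are those of the zymogen granule list and the neuronal and islet list, of the 10 peaks with the highest score and of the promoter peaks, the 5 genes with the most peaks with ties kept, and the genes without a peak by family. Genes with a peak just downstream of the TSS, peaks inside members that were assigned to other genes, and 12 sites without mismatch were chosen after their values were seen. Some genes of these lists are counted in the totals but not reported here. Alternatives varied the score quartiles kept, the gene names, the merging of peaks, the annotation, the promoter window and the motif search. Python 3.11 was used with pandas 2.3.3, numpy 2.4.6, matplotlib 3.10.9 and scipy 1.17.1.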

Additional observations from a re-analysis of the deposited data

How the results depend on the processing

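No paired analysis was possible because the list holds no value per library, and leaving out each replicate could not be run for the same reason. The direction of a difference cannot be tested here, so the alternatives show how far each count moves. Keeping only the upper 2 quartiles of score left 54 peaks in 33 genes, 11 of them with a promoter peak, and the top quartile left 22 peaks in 15 genes. A promoter window from -1000 to 1000 bp gave 31 genes. A full site without mismatch was in 13.0% of the peaks. These 7 of the 22 alternatives moved a value by more than 1.5 times or beyond its interval, and the other 15 did not, among them the RAB, SNARE, syntaxin-binding and synaptotagmin proteins alone, the nearest RefSeq TSS (59 genes), the gene body (48 genes) and windows from -1000 to 100 bp (26 genes) and from -5000 bp to the TSS (22 genes). Depth limits every count, since a weaker peak may have been missed, and a gene without a peak is not shown to be unbound.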

Other observations

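The authors' distances and those from the RefSeq start sites used here agreed within 1 bp for 90 of 91 peaks of the set. The peak of *Rab44*, a large RAB, scored 11.0, is listed as intergenic at -12023 bp and lies inside the gene in RefSeq. By the nearest RefSeq protein-coding TSS, 84 of the 92 peaks kept their gene, and *Rab11fip4*, *Rab20*, *Rab39b*, *Rab5if*, *Stx11* and *Vamp9*, which had none under these names in the list, gained one. A peak of the list stood at *Dnajc5b*, a relative of the vesicle co-chaperone *Dnajc5*, with a score of 26.1 in an intron, above the highest score of the RAB and SNARE genes. *Sec22c*, an ER SNARE relative, had a peak of 18.9 and *Rabep1*, a RAB5 effector, one of 19.3, both in introns.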
